A study of Mus musculus with 14 samples.

Results

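The plasminogen activator system was followed through 7 of the 53801 Ensembl genes quantified in CT26 tumors, namely Plau, Plat, Plaur, Serpine2, Serpinb2, Lrp1, and Plg. The genes were chosen by name, with their levels in these same tumors already known, so their differences between groups are given as a description without a test. CT26 is a chemically induced colon carcinoma line of Balb/c mice. All 14 tumors grew from CT26 cells that carried a ClonTracer barcode library, after subcutaneous transplantation of 250000 cells into each flank of female Balb/c mice aged 6 to 8 weeks. The mice received control IgG or anti-PD-1, an antibody that blocks an inhibitory receptor of T cells, at 200 μg per dose from day 7, every 3 days for 5 doses, and the harvest followed the last dose by 3 days. There were 5 control IgG tumors (14L, 14R, 16R, 17R, and 20R, from 4 mice), 5 anti-PD-1 responders (24L, 26R, 30L, 30R, and 35L, from 4 mice), and 4 tumors that did not respond to anti-PD-1 (29L, 32R, 33L, and 33R, from 3 mice, called non-responders), in which L and R are the left and right flank and the number is the mouse. Responders and non-responders were separated by the study on tumor size after treatment, so that a group is an outcome and not a randomized arm. The total of RSEM's expected counts, which are estimated fragments per gene, was between 33237744 and 48481461 per tumor, and edgeR's filter left 16287 genes for testing. Of 7 epithelial and colon markers, the intestinal genes Cdx2 (0.0199 to 0.68 CPM) and Vil1 (0.0 to 0.174 CPM) were near 0, whereas the general epithelial genes Epcam (0.554 to 5.33 CPM), Cdh1 (1.4 to 10.7 CPM), Krt8 (0.874 to 27.1 CPM), Krt18 (7.75 to 15.9 CPM), and Krt19 (0.0291 to 7.25 CPM) were detected.

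Plasminogen is made mainly by the liver and circulates as an inactive precursor. The proteases uPA (from Plau) and tPA (from Plat) cut it into plasmin, which digests fibrin and matrix proteins and activates some metalloproteinases and growth factors. The receptor uPAR (from Plaur) holds uPA at the cell surface, where serpins block the activators and the endocytic receptor Lrp1 clears the blocked complexes. In tumors this system is known for its part in invasion, and macrophages, neutrophils, fibroblasts, and cancer cells can all express parts of it. In bulk tissue, fewer cells of a type and less RNA per cell cannot be told apart.

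Plaur, the receptor, and Serpinb2, an intracellular serpin that inhibits uPA, were the 2 members whose levels in responders did not overlap with those in non-responders or control IgG tumors. Of all genes tested, 12.8% had no overlap between responders and non-responders, and 15.1% had none between responders and control IgG tumors. Promoter sequences were held for 4 of the 7 members (Plaur, Serpinb2, Serpine2, and Lrp1) in RefSeq's annotation of GRCm38.p6. The 250 bases before the start site of Plaur (chr7:24462233-24462482, + strand) and of Serpinb2 (chr1:107511173-107511422, + strand) are printed 5′ to 3′ because these were the members without overlap. Capitals mark the single match to TGANTCA, a loose pattern searched for AP-1, a dimer of Fos and Jun proteins, in which N is any base.
Plaur: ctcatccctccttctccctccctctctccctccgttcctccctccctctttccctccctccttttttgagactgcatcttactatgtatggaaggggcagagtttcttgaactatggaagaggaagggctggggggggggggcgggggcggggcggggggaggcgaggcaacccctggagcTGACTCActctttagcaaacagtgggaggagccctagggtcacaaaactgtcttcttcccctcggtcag
Serpinb2: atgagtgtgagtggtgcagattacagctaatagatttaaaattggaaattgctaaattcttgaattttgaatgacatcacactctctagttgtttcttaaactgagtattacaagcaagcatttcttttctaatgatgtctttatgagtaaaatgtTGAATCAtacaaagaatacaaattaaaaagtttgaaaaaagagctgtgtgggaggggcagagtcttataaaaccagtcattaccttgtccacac
The match in Plaur was TGACTCA, from 69 to 63 bases before the start (chr7:24462414-24462420). The match in Serpinb2 was TGAATCA, from 94 to 88 bases before the start (chr1:107511329-107511335), and a later RefSeq start of the gene had the same match in its window. On both strands of windows from 250 bases before to 50 bases after the start, TGANTCA was present in 7.81% of 32851 promoters, and the windows of Serpine2 and Lrp1 did not hold it. The GC box GGGCGG, present in 35.7% of promoters, was matched 3 times in Plaur, 6 times in Serpine2, once in Lrp1, and not in Serpinb2. The TATA box TATAAA, present in 13.6% of promoters, was matched only in Serpinb2 among these 4 genes, and the cAMP response element TGACGTCA, present in 1.79%, was matched in none of the 4. No AP-1 match overlapped with another motif in these windows. The GC content of the printed stretch was 59.6% in Plaur and 32.4% in Serpinb2. Matches of this kind describe letters, not binding.

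Plaur (ENSMUSG00000046223, chromosome 7, 24462484 to 24475968, + strand, mm10) was the most abundant of the members per length in control IgG tumors and non-responders. Its level was 161.0, 185.2, 183.2, 187.9, and 186.0 CPM in control IgG tumors 14L, 14R, 16R, 17R, and 20R, where CPM is the expected count relative to the TMM-scaled size of the library. It was 152.1, 158.1, 164.4, and 180.6 CPM in non-responders 29L, 32R, 33L, and 33R. In responders it was 89.7, 80.2, 119.9, 85.6, and 98.1 CPM in 24L, 26R, 30L, 30R, and 35L. All 5 responders lay below all 9 other tumors, and the highest responder, 30L, was still below the lowest non-responder. The mean was 94.7 CPM ± 15.5 (SD, n = 5) in responders, 163.8 CPM ± 12.2 (SD, n = 4) in non-responders, and 180.6 CPM ± 11.1 (SD, n = 5) in control IgG tumors. On the log2 scale the difference was -0.79 ± 0.105 (SE) between responders and non-responders and -0.93 ± 0.1 between responders and control IgG tumors, or 1.73 and 1.91 times lower. Non-responders and control IgG tumors overlapped, with a difference of -0.14 ± 0.106. The difference between responders and non-responders was -0.89 to -0.73 when each tumor was left out in turn, and -0.55 on the log2(TPM + 1) scale, where the median of all genes was 0.169 instead of 0.006. With an offset for transcript length it was -0.7. In TPM the groups came close, at 128.19 in responder 30L and 132.57 in non-responder 33R. The library of 33R was low across genes with long transcripts (see Lrp1 below), and the part of this in Plaur was not tested. Tumor 30L stood above 30R of the same mouse by 0.49 on the log2 scale, and 1 of the 23 pairs of tumors of a group from different mice differed more.

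Serpinb2 (ENSMUSG00000062345, chromosome 1, 107511423 to 107535478, + strand, mm10) encodes PAI-2, a serpin of monocytes, macrophages, and keratinocytes. Its level was 16.4, 8.35, 10.8, 8.97, and 8.43 CPM in control IgG tumors 14L, 14R, 16R, 17R, and 20R. Non-responders 29L, 32R, 33L, and 33R had 5.38, 5.91, 7.11, and 11 CPM. Responders 24L, 26R, 30L, 30R, and 35L had 1.68, 1.22, 4.57, 4.33, and 3.84 CPM. The responders were below all other tumors, but 30L came close to 29L, the lowest non-responder, and 24L and 26R lay apart at the low end. The mean was 3.13 CPM ± 1.56 (SD, n = 5) in responders, 7.35 CPM ± 2.55 (SD, n = 4) in non-responders, and 10.6 CPM ± 3.38 (SD, n = 5) in control IgG tumors. The log2 difference was -1.22 ± 0.359 (SE) between responders and non-responders, -1.75 ± 0.346 between responders and control IgG tumors, and -0.53 ± 0.357 between non-responders and control IgG tumors. The first of these was -0.95 without 33R and -1.40 to -0.95 over all 9 omissions, and -0.79 on the log2(TPM + 1) scale. Expected counts of Serpinb2 were not whole in 24L, 33L, and 33R (72.73, 250.85, and 347.75), as RSEM gives where fragments match more than 1 place, so that these levels are less certain.

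**Figure D1:**
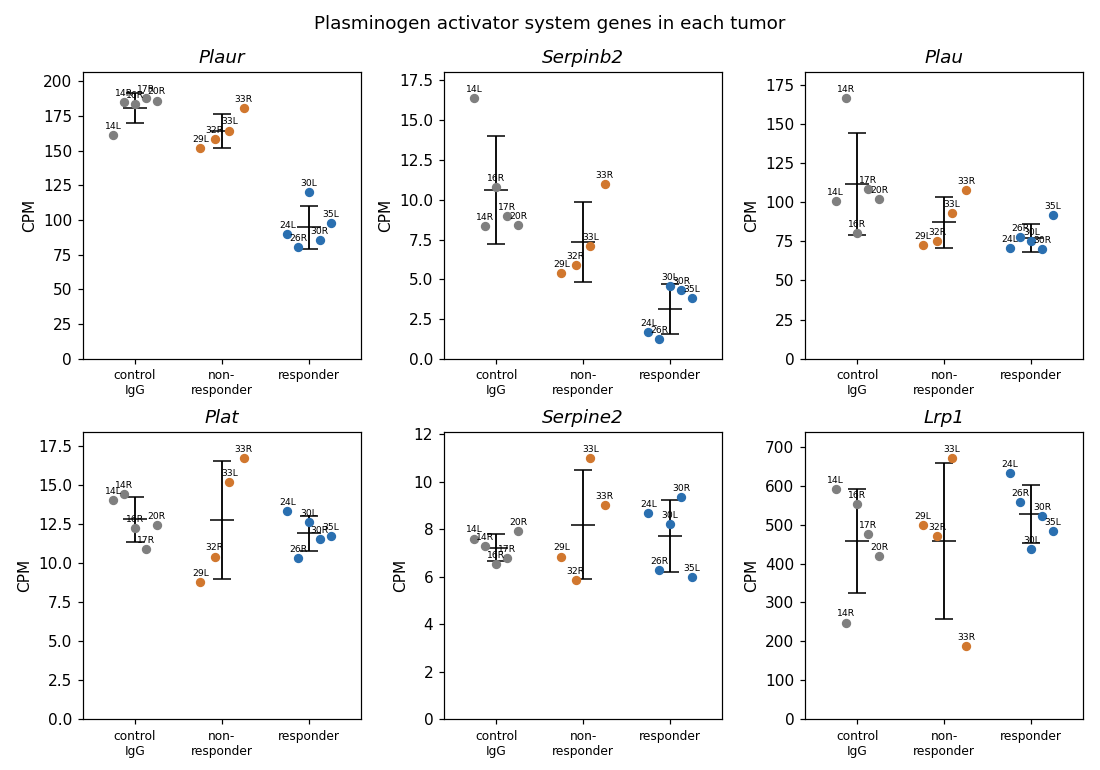
CPM after TMM scaling (vertical axes, starting at 0) of 6 members in each of 14 tumors, with 1 labelled point per tumor and the mean ± SD of each group in black. The 5 responders lie below the other 9 tumors for Plaur and Serpinb2, whereas the groups overlap for Plau, Plat, Serpine2, and Lrp1, and Lrp1 is lowest in 33R and 14R.

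The activators differed less. Plau (ENSMUSG00000021822, chromosome 14, 20836660 to 20843385, + strand), which encodes uPA, had 100.9, 166.5, 80.5, 108.2, and 101.7 CPM in control IgG tumors 14L, 14R, 16R, 17R, and 20R. Non-responders 29L, 32R, 33L, and 33R had 72.8, 75.4, 92.9, and 107.7 CPM, and responders 24L, 26R, 30L, 30R, and 35L had 70.6, 77.8, 75.1, 70.2, and 91.7 CPM. Responders overlapped with both other groups, and 14R was the highest tumor. The log2 difference was -0.18 ± 0.178 (SE) between responders and non-responders, which turned to 0.09 on the log2(TPM + 1) scale, and -0.53 ± 0.168 between responders and control IgG tumors. The latter was -0.34 without 14R and -0.63 without 16R. Within mouse 14, Plau was 0.72 apart on the log2 scale between the flanks, and 1 of 23 pairs from different mice differed more.

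Plat (ENSMUSG00000031538, chromosome 8, 22757727 to 22782844, + strand), which encodes tPA, the activator best known from vessels and fibrin, had 10.9 to 14.4 CPM in control IgG tumors (median 12.4), 8.77 to 16.7 CPM in non-responders (median 12.8), and 10.3 to 13.3 CPM in responders (median 11.7). The responders lay inside the range of the non-responders. The log2 difference between responders and non-responders was -0.10 ± 0.166 (SE), but 0.16 on the log2(TPM + 1) scale, 0.01 without 33L, and 0.07 without 33R.

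Serpine2 (ENSMUSG00000026249, chromosome 1, 79794197 to 79861180, - strand) encodes protease nexin 1, a secreted serpin that inhibits thrombin and both activators. It had 6.52 to 7.91 CPM in control IgG tumors, 5.86 to 11 CPM in non-responders, and 5.97 to 9.38 CPM in responders, all overlapping. The log2 difference was -0.08 ± 0.181 (SE) between responders and non-responders, with the sign turned on the log2(TPM + 1) scale (0.17) and without 33L (0.11), and 0.10 ± 0.171 between responders and control IgG tumors.

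Lrp1 (ENSMUSG00000040249, chromosome 10, 127538161 to 127621148, - strand) encodes a large endocytic receptor, whose longest annotated transcript has 14888 bases in 89 exons. It had 592.9, 248.4, 552.2, 477.0, and 420.3 CPM in control IgG tumors 14L, 14R, 16R, 17R, and 20R, and 499.3, 470.5, 671.2, and 186.9 CPM in non-responders 29L, 32R, 33L, and 33R. Responders 24L, 26R, 30L, 30R, and 35L had 633.7, 558.4, 437.2, 521.8, and 483.0 CPM. The low tumors were 33R and 14R, and each was the partner of a tumor that was high in its group, 33L and 14L. Within mouse 33 the flanks were 1.84 apart on the log2 scale, more than any of the 23 pairs from different mice (at most 1.42), and within mouse 14 they were 1.25 apart. The same libraries were low across genes with long transcripts. The median deviation from the mean of 14 tumors, over 892 tested genes with a mean transcript length of at least 6000 bases, was -0.78 in 33R and -0.35 in 14R on the log2 scale, and -0.07 to 0.2 in the other 12 tumors. The log2 difference of Lrp1 between responders and non-responders was 0.21 ± 0.294 (SE) with all tumors, 0.06 with an offset for transcript length, -0.04 without 33R, and -0.04 without both 14R and 33R, the last being an omission chosen after the data were seen. The part of transcript length in the level of Lrp1 was not tested further.

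**Figure D2:**
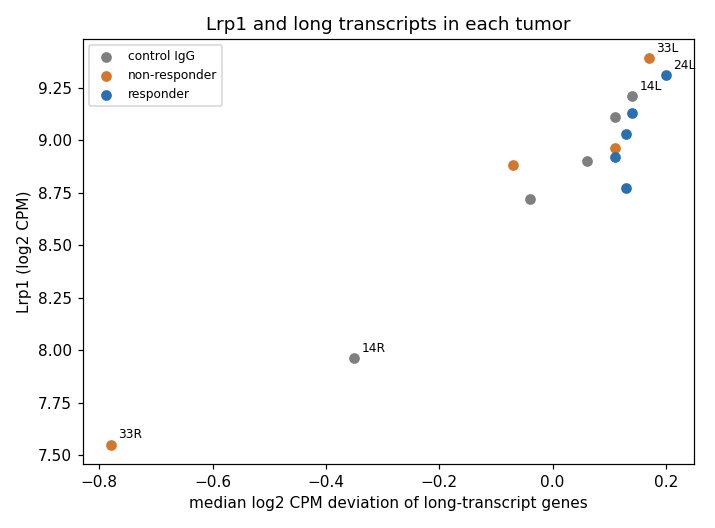
Lrp1 in log2 CPM (vertical axis) against the median log2 CPM deviation of 892 genes with long transcripts (horizontal axis), with 1 point per tumor coloured by group. Tumors 33R (-0.78) and 14R (-0.35) lie apart at the lower left with 7.55 and 7.96 log2 CPM of Lrp1, and the other 12 tumors lie between 8.72 and 9.39.

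Plg (ENSMUSG00000059481, chromosome 17, 12378608 to 12419385, + strand), the gene of plasminogen itself, had 1 count in non-responder 29L and 0 counts in the other 13 tumors. With 3 counts taken as the limit that a count of 0 allows, this allows a level of up to 0.0596 to 0.095 CPM, depending on the tumor, for counting error only. Plg was the 1 member that edgeR's filter removed. Hepatocyte markers were also low, with Alb at 0.0 to 0.338 CPM and Ttr at 0.0 to 0.0566 CPM, but 2 of the 5 markers passed the filter. The summed TPM of all 5 was 0.77 to 1.56 in control IgG tumors, 0.68 to 1.51 in non-responders, and 0.87 to 1.62 in responders. The fibrinogen genes Fga (at most 0.0641 CPM), Fgb (at most 0.317 CPM), and Fgg (at most 0.37 CPM), which encode the main substrate of plasmin, were too low to be tested, as Plg was.

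Compared per length, the members formed an abundant and a scarce class. TPM, the deposited estimate per transcript length, was 182.0 ± 9.46 (SD, n = 5) for Plaur, 77.2 ± 19.6 for Lrp1, and 61.6 ± 14.9 for Plau in control IgG tumors. Serpinb2 followed with 7.26 TPM ± 2.71, Plat with 6.5 TPM ± 0.79, and Serpine2 with 4.69 TPM ± 0.2. The neighbours Lrp1 and Plau, and Serpinb2 and Plat, overlapped in range, and the other neighbours did not. In non-responders the order was Plaur (153.8 TPM ± 17.5, n = 4), Lrp1 (76.8 TPM ± 32.6), Plau (44.5 TPM ± 6.47), Plat (5.94 TPM ± 1.61), Serpine2 (4.76 TPM ± 1.54), and Serpinb2 (4.65 TPM ± 1.12), where Lrp1 overlapped with Plau, and Serpine2 with both Plat and Serpinb2. In responders Lrp1 (105.5 TPM ± 33.6, n = 5) and Plaur (105.1 TPM ± 16.0) could not be ordered, since Lrp1 was above Plaur in 2 of 5 tumors. Plau followed with 47.1 TPM ± 4.65, then Plat (6.66 TPM ± 0.72) and Serpine2 (5.41 TPM ± 1.15), which overlapped, and Serpinb2 last of those detected (2.38 TPM ± 1.12).

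**Figure D3:**
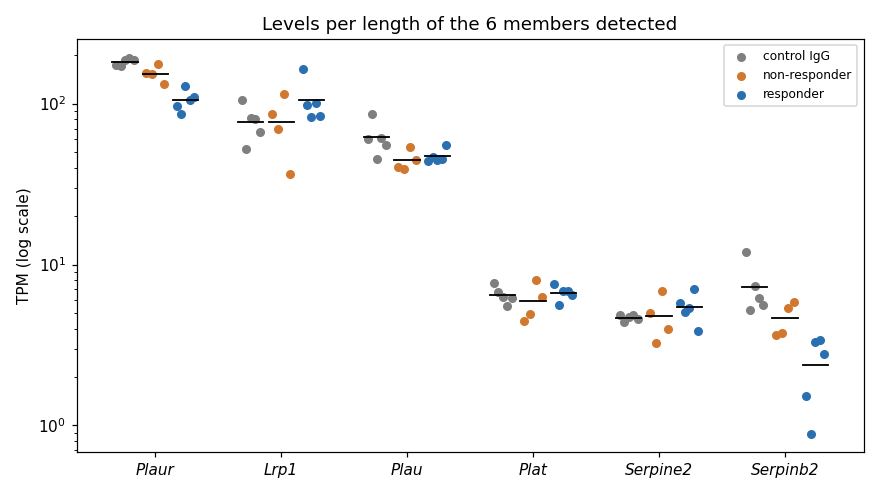
TPM of the 6 detected members (vertical axis, log scale) in each tumor, with 1 point per tumor coloured by group and a black line at each group mean. Plaur, Lrp1, and Plau lie above 36 TPM in all 14 tumors, whereas Plat, Serpine2, and Serpinb2 lie below 12 TPM.

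The receptor stood above its ligand gene in every tumor. The ratio of Plaur TPM to Plau TPM was 2.19, 1.85, 2.89, 2.3, and 2.0 in responders 24L, 26R, 30L, 30R, and 35L. It was 3.84, 3.86, 3.27, and 2.98 in non-responders 29L, 32R, 33L, and 33R, all above the responders, and 1.99 to 4.12 in control IgG tumors, which overlapped with both groups. Responder 30L (2.89) came close to non-responder 33R (2.98). The ratio uses member values that were known when the genes were chosen, and other pairs of genes were not compared, so it is a description.

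Across the fit of all genes, 2 of the 6 tested members, Plaur and Serpinb2, had an adjusted p under 0.05 between responders and non-responders in edgeR's quasi-likelihood test, both lower in responders, beside 4.82% of all genes tested that were called lower and 5.08% that were called higher. Both also had groups that did not overlap, beside 12.8% of all genes. The call of Serpinb2 was lost in 7 of 9 omissions of a tumor (24L, 26R, 30R, 32R, 33L, 33R, or 35L), and that of Plaur in none. Between responders and control IgG tumors, 3 members were called lower (Plau, Plaur, and Serpinb2), beside 5.3% of genes called lower and 7.88% called higher. Here 2 members, Plaur and Serpinb2, had groups that did not overlap, beside 15.1% of all genes. The call of Plau was lost in 8 of 10 omissions (14L, 14R, 17R, 20R, 24L, 26R, 30L, or 30R), with 1 library per mouse, with limma-voom, without a filter, and on the log2(TPM + 1) scale. Between non-responders and control IgG tumors no member was called and none had groups that did not overlap, beside 0.0% and 1.24% of all genes, and 758 genes had an unadjusted p under 0.05 in edgeR, whereas DESeq2 called 16. Because the members were chosen on these contrasts, nothing is read from these counts. The median log2 difference of the tested members was -0.14 between responders and non-responders and -0.32 between responders and control IgG tumors, beside 0.006 and -0.011 over all genes. On the log2(TPM + 1) scale 91.2% of the calls between responders and non-responders were higher in responders, against 51.3% in the main test.

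The summed level of some cell type markers also separated these groups, on the TPM scale, on which the median log2 difference of all genes between responders and non-responders was 0.169. The summed TPM of 9 monocyte and macrophage markers was 2901.9 to 3094.0 in control IgG tumors, 2819.5 to 3514.1 in non-responders, and 3587.9 to 4626.1 in responders, which did not overlap with the others. The summed TPM of 5 T cell markers was 13.2 to 31.1 in control IgG tumors, 10.2 to 19.2 in non-responders, and 26.0 to 46.9 in responders, and that of 6 endothelial markers was 48.4 to 76.5, 43.8 to 81.4, and 84.8 to 112.2 in the same order. In edgeR's test between responders and non-responders 4 of 5 T cell markers, 1 of 9 monocyte and macrophage markers, and 0 of 6 endothelial markers were called higher, beside 5.08% of all genes. The other 8 of 11 marker lists overlapped between responders and non-responders. Among these, the summed TPM of 8 neutrophil markers was 79.2 to 201.7 in non-responders and 35.6 to 135.0 in responders, that of 8 fibroblast markers 401.6 to 886.2 and 635.9 to 1031.0, and that of 8 keratinocyte markers 76.5 to 213.5 and 11.8 to 801.7. In edgeR's test 1 of 7 tested neutrophil, 1 of 8 fibroblast, and 0 of 8 keratinocyte markers were called higher in responders than in non-responders, and none lower. Their median log2 differences were 0.07, 0.2, and 0.35. Single markers could differ from the sum, as the fibroblast marker Dcn, at 194.2 to 278.2 CPM in non-responders and 122.3 to 201.5 CPM in responders. No marker of the neutrophil, macrophage, T cell, endothelial, fibroblast, or keratinocyte lists was at 0 in all tumors of a group. The part of these cell types in the levels of Plaur and Serpinb2 was not tested.

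The length of a member's transcripts was a readout that the choice of members had not used. RSEM gives each gene a mean transcript length, weighted by the estimated share of each annotated transcript. None of the 5 members with lengths that varied enough for a test differed between responders and non-responders beyond the spread among tumors (exact permutation test of the means, two-sided, Benjamini-Hochberg over 6 members, smallest adjusted p = 0.984). For Plaur, with 6 annotated transcripts, the mean length was 1413.1 bases ± 42.1 (SD, n = 5) in responders and 1409.9 bases ± 23.1 (SD, n = 4) in non-responders (exact permutation p = 0.905). For Serpinb2 it was 1918.5 bases ± 125.9 in responders and 1922.7 bases ± 59.5 in non-responders (exact permutation p = 0.984), and 24L, at 1693.2 bases, was the shortest. For Lrp1, with 10 annotated transcripts, it was 6813.1 bases ± 904.5 and 6579.2 bases ± 1315.5 (exact permutation p = 0.659). The shortest of these were 4635.3 bases in 33R, which was low across genes with long transcripts, and 5261.9 bases in 24L, which was not (median deviation 0.2). The remaining tests gave an exact permutation p of 0.492 for Plat and 0.762 for Serpine2. The smallest p that the values of these 5 members allow is 0.00794. The test of Plau was void, since its length was 2342.0 bases in all these tumors but 29L, and no split of such values gives a p below 0.444 in an exact permutation test. The mean fragment length of the libraries, which enters RSEM's effective lengths, was between 277.49 and 287.83 bases in non-responders and between 269.46 and 277.04 bases in responders, and its part in these lengths was not tested.

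Genes whose levels ran most like Plaur over the 14 tumors were named by Pearson correlation of log2 CPM among 12204 genes. They were Snhg8 (a host gene of small nucleolar RNAs, r = 0.966), Pip5k1a (a lipid kinase, r = 0.964), Csn3 (kappa casein, r = 0.964), Rpl4 (a ribosomal protein, r = 0.961), Stau2 (an RNA binding protein, r = 0.958), and Coq10b (r = 0.956). Since the responders form a cluster of their own for Plaur, these values mostly separate responders from the other tumors. Snhg8 had 26.5, 24.1, 34.7, 24.9, and 28.3 CPM in responders 24L, 26R, 30L, 30R, and 35L, in the same order as Plaur, and 40.8 to 59.3 CPM in the other tumors. After the mean of each group was subtracted, the most similar genes were Mipol1 (r = 0.915), Csn3 (r = 0.897), Rpl4 (r = 0.869), Cavin4 (r = 0.866), and the granzymes Gzmf (r = 0.856) and Gzmg (r = 0.854), of which Csn3 and Rpl4 were on both lists. Csn3 had 1.53, 1.2, 4.41, 1.59, and 2.4 CPM in responders 24L, 26R, 30L, 30R, and 35L and 5.11 to 12.8 CPM elsewhere. Among the members, Serpinb2 was the nearest to Plaur (r = 0.863 over 14 tumors and 0.472 within groups). Plau (r = 0.592 and 0.272), Plat (r = 0.277 and 0.362), and Serpine2 (r = 0.004 and 0.176) were farther, and Lrp1 was negative (r = -0.396 and -0.466). All these values share the same 14 libraries and their depth.

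**Figure D4:**
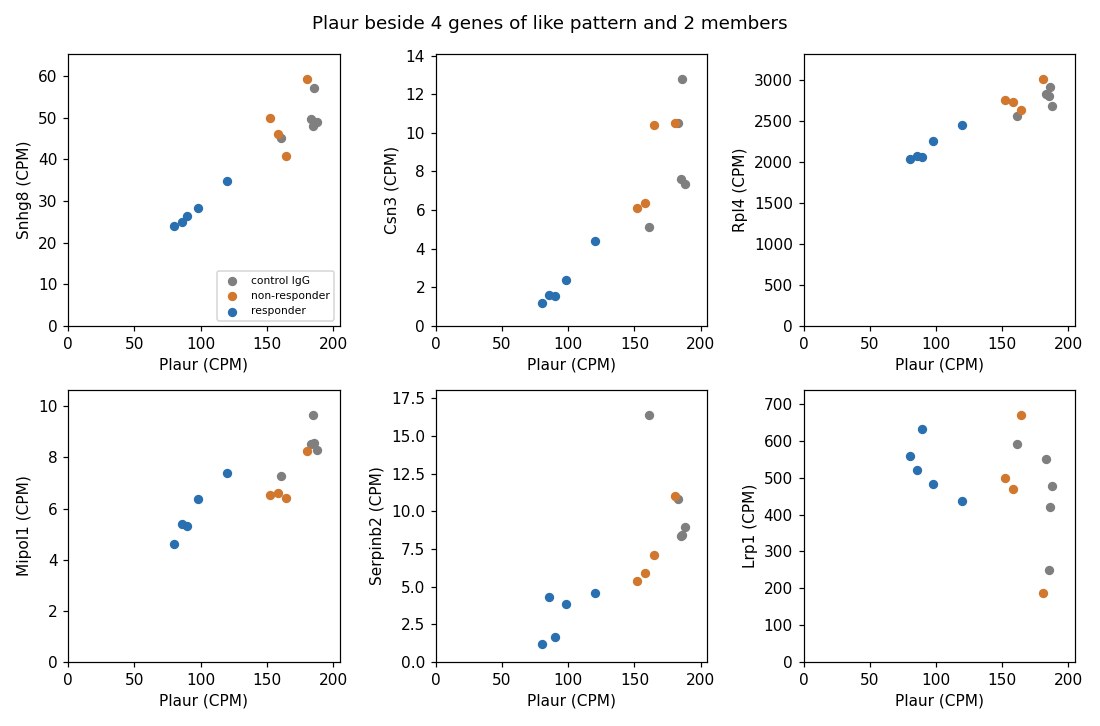
CPM of Snhg8, Csn3, Rpl4, Mipol1, Serpinb2, and Lrp1 (vertical axes) against CPM of Plaur (horizontal axes), both from 0, with 1 point per tumor coloured by group. The responders, at 80.2 to 119.9 CPM of Plaur, lie apart from the other tumors, and within them Snhg8 has the same order as Plaur.

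The other genes around this system were taken as 8 lists of 85 genes, of which 72 could be tested. Between responders and non-responders 6 rose and 4 fell, beside 5.08% and 4.82% of all genes, and 62 were not called. Between responders and control IgG tumors 11 rose and 5 fell, beside 7.88% and 5.3% of all genes, and 56 were not called, and between non-responders and control IgG tumors none was called. The median log2 difference over these 72 genes was 0.16 and 0.03 for the comparisons of responders, beside 0.006 and -0.011 over all genes. The lists, like the members, were chosen with earlier results of these data known. Their counts, medians, and adjusted p-values are therefore a description, and nothing is read from the counts.

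Of the 5 other inhibitors tested, none was called between responders and non-responders. A2m, a broad protease inhibitor, rose in responders against control IgG tumors from 0.181 CPM ± 0.069 to 0.645 CPM ± 0.235 (log2 1.82 ± 0.469, edgeR adjusted p = 0.02078), at 4 to 42 counts per tumor, and the call was lost without 20R or 24L (adjusted p = 0.0613). Serpina5, Serpinf2, Pzp, and Cpb2 were too low to be tested. None of the 6 plasminogen receptors was called in any comparison, and Anxa2, the most abundant of them, had 1702.4 CPM in non-responders and 1548.6 CPM in responders (log2 -0.14 ± 0.103, edgeR adjusted p = 0.4115).

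Of 13 partners of uPAR at the cell surface, 3 rose and 1 fell in responders against non-responders, and 4 rose and 2 fell against control IgG tumors, with the same shares of all genes as above. Itgb2, the beta chain of leukocyte integrins such as Mac-1, rose, with 35L at 127.5 CPM inside the range of the non-responders, from 111.5 CPM ± 17.9 (SD, n = 4) in non-responders and 96.1 CPM ± 9.6 (SD, n = 5) in control IgG tumors to 186.9 CPM ± 44.0 (SD, n = 5) in responders (log2 0.74 ± 0.165, edgeR adjusted p = 0.01657). Its partner chain Itgam was at 231.3 CPM in non-responders and 317.3 CPM in responders without being called (log2 0.46 ± 0.203, edgeR adjusted p = 0.1596). The formyl peptide receptors, chemotactic receptors of phagocytes, rose as well. Fpr1 was at 5.32 CPM ± 1.04 in non-responders and at 11.3 CPM ± 3.04 in responders, with no overlap (log2 1.09 ± 0.25, edgeR adjusted p = 0.01879, lost without 24L or 32R at 0.053 to 0.057). Fpr2 was at 11 CPM ± 0.527 in non-responders and at 17.7 CPM ± 4.33 in responders, with no overlap (log2 0.69 ± 0.188, edgeR adjusted p = 0.03502), and this call was lost in 7 of 9 omissions (24L, 29L, 30L, 30R, 32R, 33L, or 33R, adjusted p = 0.0502 to 0.0937) and with 1 library per mouse (adjusted p = 0.0652). In contrast Itgb5, a chain of the vitronectin receptor that also binds the matrix ligand of uPAR, fell between non-responders (142.7 CPM ± 12) and responders (110.4 CPM ± 10.5, log2 -0.37 ± 0.092, edgeR adjusted p = 0.02513). Its call was lost without 24L, 32R, or 33L (adjusted p = 0.0607 to 0.0686), with these groups alone (adjusted p = 0.0604), and on the log2(TPM + 1) scale (adjusted p = 0.567). Expected counts of Itgb5 were not whole in most tumors, so its level is less certain. Against control IgG tumors, Fpr2 rose and Itgb3 rose (log2 0.62 ± 0.124, edgeR adjusted p = 0.0055), whereas Itgb1 fell by 0.24 on the log2 scale (edgeR adjusted p = 0.04852), a call that 9 of 10 omissions, all but that of 30L, removed (adjusted p = 0.0617 to 0.125). The call of Fpr2 there was lost without 16R, 20R, 24L, or 30R (adjusted p = 0.0553 to 0.0697), and its groups overlapped.

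The uptake list beside Lrp1 had 6 tested genes, namely uptake receptors and their chaperone Lrpap1. Of these, 1 rose in responders against non-responders, beside 5.08% of all genes. Sorl1, a sorting receptor of the same wider family as Lrp1, rose from 4.73 CPM ± 1.91 (SD, n = 4) in non-responders to 10.3 CPM ± 1.81 (SD, n = 5) in responders, with no overlap (log2 1.13 ± 0.237, edgeR adjusted p = 0.01392). The lowest tumor was 33R (2.57 CPM), which was also low in long transcripts. Against control IgG tumors it rose by 0.85 on the log2 scale (edgeR adjusted p = 0.02098, lost without 20R or 24L at 0.0625 to 0.0631 and on the log2(TPM + 1) scale at 0.066). The other 5 tested were not called, among them Lrp8, Lrpap1, and Igf2r, and Lrp2 was too low to be tested.

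In the coagulation list, Tfpi, the inhibitor of the tissue factor pathway, fell from 45.3 CPM ± 6.83 (SD, n = 4) in non-responders to 35.5 CPM ± 3.46 (SD, n = 5) in responders, with overlap (log2 -0.35 ± 0.104, edgeR adjusted p = 0.04712). Its call was lost in 8 of 9 omissions, all but that of 29L (adjusted p = 0.0501 to 0.151), and in 6 of the other alternatives, of which log2(TPM + 1) gave the highest adjusted p (0.805). Against control IgG tumors Tfpi fell by 0.34 on the log2 scale (edgeR adjusted p = 0.03613), which 7 of 10 omissions removed (14L, 14R, 17R, 20R, 24L, 30L, or 30R, adjusted p = 0.0528 to 0.0944). Factor X (F10), a serine protease of the clotting cascade, rose against control IgG tumors from 1.5 CPM ± 0.6 to 5.11 CPM ± 1.55 (log2 1.76 ± 0.275, edgeR adjusted p = 0.001648), and lay at 3.2 CPM ± 0.175 in non-responders. Factor VII (F7) rose from 0.254 CPM ± 0.0829 to 0.592 CPM ± 0.234, with overlap (log2 1.23 ± 0.323, edgeR adjusted p = 0.02287), at 6 to 39 counts per tumor, and the call was lost without 20R or 24L (adjusted p = 0.0635 to 0.0703). F3, which encodes tissue factor, was not called (13 CPM in non-responders and 15.6 CPM in responders, log2 0.26 ± 0.261, edgeR adjusted p = 0.549).

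In a list of 11 latent targets of plasmin or uPA and relatives of such targets, 1 fell and none rose in responders against non-responders. Of all genes, 4.82% were called lower and 5.08% higher. Pdgfc, a growth factor that needs proteolytic cutting to bind its receptor, fell from 12.9 CPM ± 2.69 (SD, n = 4) in non-responders and 11.9 CPM ± 2.24 (SD, n = 5) in control IgG tumors to 7.98 CPM ± 0.972 (SD, n = 5) in responders, with no overlap (log2 -0.69 ± 0.159, edgeR adjusted p = 0.01879). The call was lost without 24L or 33R (adjusted p = 0.0529 to 0.058), without both 14R and 33R (adjusted p = 0.0501), and on the log2(TPM + 1) scale (adjusted p = 0.0915). Against control IgG tumors Pdgfc fell by 0.58 on the log2 scale (edgeR adjusted p = 0.02231), a call lost without 16R, 20R, 24L, or 30R (adjusted p = 0.0546 to 0.0683). Mmp9, a gelatinase, was at 48.3 CPM in non-responders and 29.7 CPM in responders without being called (log2 -0.70 ± 0.449, edgeR adjusted p = 0.3283), and Hgf, which uPA can activate, was at 2.55 and 3.31 CPM (log2 0.38 ± 0.206, edgeR adjusted p = 0.2486).

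In the Ly6/uPAR family, whose proteins share the three-finger fold of uPAR, 2 of 8 tested genes rose in responders against non-responders, beside 5.08% of all genes. Ly6a, also called Sca-1 and induced by interferon, rose from 226.8 CPM ± 49.3 (SD, n = 4) in non-responders and 166.4 CPM ± 75.4 (SD, n = 5) in control IgG tumors to 598.7 CPM ± 198.6 (SD, n = 5) in responders (log2 1.40 ± 0.316, edgeR adjusted p = 0.01778). Ly6c2, a marker of inflammatory monocytes, rose between non-responders (14 CPM ± 4.13) and responders (37.9 CPM ± 16.6, log2 1.43 ± 0.375, edgeR adjusted p = 0.03015), and this call was lost without 24L, 29L, 30L, 30R, 32R, or 33L (adjusted p = 0.0519 to 0.0804). Ly6c2 has a near copy, and its expected counts were not whole, so its level depends on how RSEM divided shared fragments. Both genes had groups that did not overlap. Lypd3 and Lypd5, further members of this family, were at 4.45 and 7.25 CPM in non-responders and 3.87 and 9.66 CPM in responders, and neither was called (edgeR adjusted p = 0.9294 and 0.5558).

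Among 13 transcription factors of families known to act on Plau or Plaur (AP-1, Ets, NF-kB, Hif, and Klf), Fosl1, an AP-1 subunit also called Fra-1, was the 1 factor called between responders and non-responders. Of all genes, 4.82% were called lower and 5.08% higher there. Fosl1 had 107.4, 128.4, 133.6, and 104.7 CPM in non-responders 29L, 32R, 33L, and 33R, and 70.0, 86.8, 89.7, 68.6, and 84.7 CPM in responders 24L, 26R, 30L, 30R, and 35L. The responders lay below all non-responders and below all control IgG tumors (121.3 to 148.6 CPM). Fosl1 fell in responders by 0.57 ± 0.106 on the log2 scale against non-responders (edgeR adjusted p = 0.009622) and by 0.74 ± 0.101 against control IgG tumors (edgeR adjusted p = 0.0008688). These calls held in all omissions of 1 tumor, but on the log2(TPM + 1) scale the first had an adjusted p of 0.113. Of the other AP-1 genes, Jund rose against control IgG tumors (log2 0.39 ± 0.117, edgeR adjusted p = 0.04289, lost in 8 of 10 omissions, of 14L, 14R, 16R, 20R, 24L, 26R, 30L, or 35L, at 0.0545 to 0.119). The groups overlapped for Jund, and its expected counts were not whole in any tumor, so its level is less certain. Fos, Fosb, Fosl2, Jun, and Junb were not called, with Jun at 141.9 CPM in non-responders and 151.0 CPM in responders and Junb at 126.6 and 103.2 CPM (log2 -0.29 ± 0.111, edgeR adjusted p = 0.1001).

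**Figure D5:**
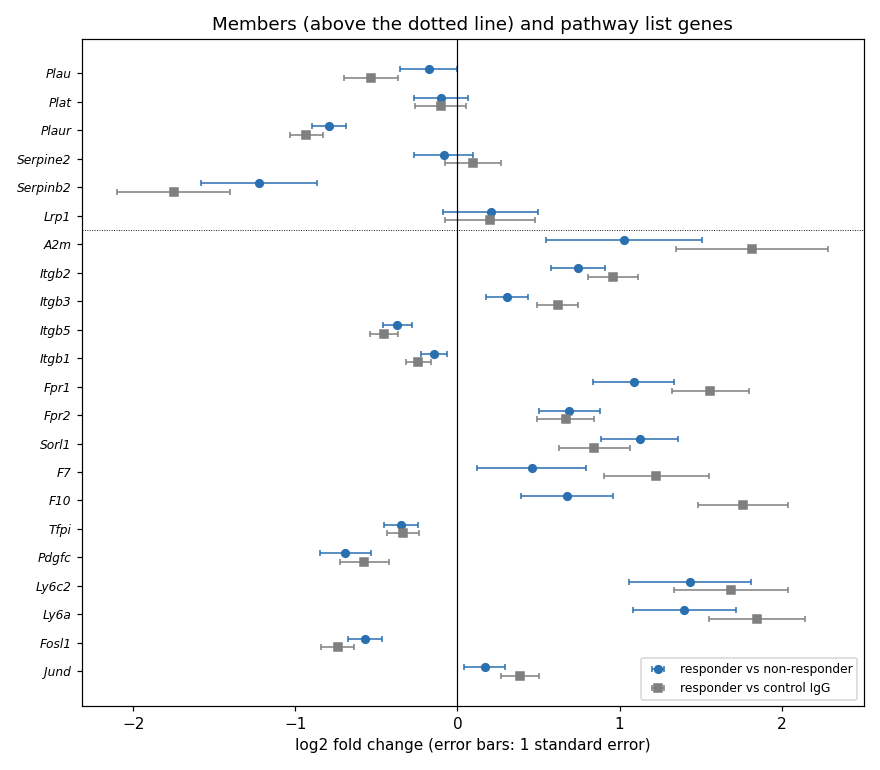
Log2 fold changes with 1 standard error (horizontal axis) of the 6 tested members, above the dotted line, and of the 16 pathway list genes called in at least 1 comparison, for responders against non-responders (blue circles) and against control IgG tumors (grey squares). Plaur, Serpinb2, Itgb5, Tfpi, Pdgfc, and Fosl1 lie left of 0 and Itgb2, Fpr1, Fpr2, Sorl1, Ly6c2, and Ly6a right of 0 in both comparisons, which share the responder tumors, whereas Plat, Serpine2, and Lrp1 lie near 0.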

How the data were processed

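RNA of 14 CT26 tumors was sequenced after oligo(dT) selection. The submitters' processing notes name mm10, STAR, and RSEM. The authors deposited expected counts, which are unnormalized fragment estimates. The authors also deposited TPM, scaled by effective length and total, and FPKM, which was not used. The deposited length column, in bases, is another value that RSEM gives, the mean transcript length. Depth was 33237744 to 48481461 counts per tumor, and floors cover counting error only. Symbols were found for 53620 of 53801 gene identifiers, and groups came from the sample labels. Both flanks of mice 14, 30, and 33 entered the main fit and the permutation tests as separate tumors. The paper reports that tumor sizes correlated between the flanks of a mouse and that barcode distributions were more alike within a mouse. The p-values of these tests therefore measure the spread between tumors, not between mice.

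Rounded expected counts entered edgeR 4.0.16 under R 4.3.3 (TMM, filterByExpr, quasi-likelihood, Benjamini-Hochberg) over all 14 tumors without covariates. The prior count of log2 CPM was 2 and the pseudocount of log2 TPM was 1. Transcript coordinates came from GENCODE vM21. The tests were tried on simulated counts. Alternatives were DESeq2 1.42.0, limma-voom (limma 3.58.1) with and without a random effect of mouse, 1 library per mouse, other filters and scalings, a length offset, TPM, the compared groups alone, and omission of each tumor. The omission of 14R and 33R was added after the data were seen.

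The members, lists, and tests were chosen with earlier results of these data known. The genes named are the members, each pathway list gene called in any comparison, uncalled list genes with values, and the 6 genes most like Plaur by each measure among genes with a mean log2 CPM of at least 1. Markers are given as levels.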

Additional observations from a re-analysis of the deposited data

Results flagged for a closer look

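In 7 of 87 groups of 4 or 5 tumors checked, 1 tumor lay apart from the rest by the gap to its neighbour relative to the range of the group. Chance alone gives about 1 in 20 for values without ties. Some lengths were tied, so the count of flags is not compared with that rate. Plaur was low in control IgG tumor 14L (7.33 log2 CPM). Itgb5 was low in control IgG tumor 14R (6.99 log2 CPM). The mean transcript length was apart for Plau in non-responder 29L (2338.6 bases), for Plat in control IgG tumor 17R (2557.5 bases), for Plaur in non-responder 33R (1444.5 bases), for Serpine2 in non-responder 29L (1857.2 bases), and for Serpinb2 in responder 24L (1693.2 bases). In both flags of 29L the other non-responders had the same length (2342.0 bases for Plau and 2210.0 bases for Serpine2), so that any difference would have been flagged.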

How the results depend on the processing

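The log2 differences of Plaur kept their sign in all alternatives, and those of Serpinb2 between responders and either group did so too. Between responders and non-responders, 1612 genes were called, against 2594 with DESeq2, 2973 with limma-voom and a random effect of mouse, 689 with the 2 groups alone, and 569 to 1978 with each tumor left out. Of the members, 2 were called, against 1 without a filter, with the 2 groups alone, with TPM, and without 14R and 33R, and 1 to 2 with each tumor left out. Of the pathway list genes, 10 were called there and 4 to 10 with each tumor left out. Between responders and control IgG tumors, 2147 genes were called, against 3249 without 14R and 33R and 1190 to 1944 with each tumor left out, and 16 pathway list genes, against 8 to 14. Of the members, 3 were called there, against 2 with limma-voom without the random effect, with 1 library per mouse, without a filter, and with TPM, and 2 to 3 with each tumor left out. Between non-responders and control IgG tumors, 0 genes were called by edgeR, against 16 with DESeq2 and 3 without a filter. Of the 6 genes most like Plaur over 14 tumors, 2 stayed on the list with log2(TPM + 1), 1 with Spearman correlation, and 3 to 6 with each tumor left out, and of the 6 most like it within groups, 1, 3, and 1 to 6 did. Omission of a tumor, or the mean of both flanks, left too few arrangements for a transcript length to pass after adjustment, so that these alternatives say nothing about stability. The causes were not tested. No paired analysis was possible because the groups share no mouse and no replicate numbers in the labels. At 33237744 counts or more per tumor, depth limits Plg, the genes too low to be tested, and tested genes below about 1 CPM such as A2m, F7, Cd177, Lypd1, and Vtn.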
